A study of Mus musculus with 8 samples.

Results

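The 40 genes described here belong to the ATF4 pathway and to amino acid supply, and they were read in the quadriceps muscle of mice after 2 weeks of hypoxia. They are the kinases and phosphatase subunits that act on the initiation factor eIF2, ATF4 and genes known as its targets, and enzymes and transporters of amino acids. They were chosen by symbol, through the array annotation, from probe sets paired with exactly 1 symbol. Of the 40, 38 were tested among 13257 genes. Slc7a11 lay below the filter on dim probe sets, and Pycr1 was not analysed here. The animals were adult male mice of the C57Bl/10 strain, and all 8 samples were quadriceps RNA on Affymetrix Mouse 430 2.0 arrays. Of these, 4 Control samples came from mice in room conditions. The 4 Hypoxia samples came from mice in a closed chamber whose oxygen was lowered from 21% to 8% over 1 week and held at 8% for 7 days. Only the hypoxic mice are described as kept in the chamber, so low oxygen and the chamber cannot be told apart. Nothing in the labels states that each sample came from a separate animal, so p-values measure the spread between these samples only.

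Cells under several kinds of stress phosphorylate eIF2 through dedicated kinases, which slows general protein synthesis while the mRNA of the transcription factor ATF4 is translated better. ATF4 then raises genes for amino acid import, for the synthesis of non-essential amino acids, for tRNA charging and for the dephosphorylation of eIF2. Much of this control acts on translation and phosphorylation, which transcript arrays do not read.

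ATF4, as a dimer with C/EBP proteins, binds composite elements that share the core TGATGNAA. The 300-base promoter windows of a RefSeq table (GRCm38.p6, from 250 bases before to 50 after a start site) were searched for that core on both strands. The core was found for 9 of the 34 genes with a window (26.5%), against 4.51% of all 27025 genes in the table and 3.97% of all 32851 windows. The stricter core TGATGCAA, which lies within the first, was found for 7 of the 34 (20.6%) and for 1.03% of all genes. The set was chosen to hold known ATF4 targets, so this share is a description and was not tested. The sites are shown because they let the reader set the sequence beside each gene's change. Each line runs 5′ to 3′ on the gene's own strand, and capitals mark the core or its reverse complement.
Asns: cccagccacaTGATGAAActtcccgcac
Nupr1: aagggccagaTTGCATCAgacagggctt
Chac1: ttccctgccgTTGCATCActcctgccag
Trib3: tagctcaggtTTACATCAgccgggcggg
Vldlr: gcagcaatagTTGCATCAgcgctcctag
Got1: attgcattggTTGCATCAtacaagcctc
Slc1a4: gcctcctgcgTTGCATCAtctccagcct
Pycr1: gccctgtgtaTGATGCAAtgcacaaggc
Slc7a11: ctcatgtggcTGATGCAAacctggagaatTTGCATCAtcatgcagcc

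The Asns site begins 23 bases before the start site (window at chr6:7693215-7693242, minus strand), and that of Nupr1 110 bases before it (chr7:126625563-126625590, minus strand). Sites began 193 bases before the start for Chac1 (chr2:119351039-119351066, plus strand), 102 for Got1 (chr19:43524690-43524717, minus strand) and 103 for Pycr1 (chr11:120643834-120643861, minus strand). Vldlr had its site 200 bases before 1 of its start sites in the table (chr19:27216810-27216837, plus strand). The Trib3 core began at base 15 after the start (chr2:152344029-152344056, minus strand), and that of Slc1a4 4 bases before it (chr11:20332700-20332727, minus strand). Slc7a11 had 2 cores, beginning 66 and 47 bases before the start (chr3:50443643-50443689, minus strand). Of the 7 tested genes with a core, Asns rose, Nupr1 fell and the other 5 did not pass the test, as described below by role. No core in these windows was found for Ppp1r15a, Psat1, Mthfd2, Slc3a2 or Slc7a1, which rose, nor for Atf4 itself, and 6 of the 40 genes had no window in the table.

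After hypoxia 10 of the 38 tested genes rose and 6 fell (limma, Benjamini-Hochberg adjusted p below 0.05 over all genes tested). That is 26.3% higher and 15.8% lower, against 14.8% higher and 18.8% lower among all 13257 genes, of which 33.6% passed in either direction. The genes that rose were Slc7a5, Cth, Ppp1r15a, Psat1, Slc3a2, Asns, Slc7a1, Mthfd2, Ppp1r15b and Atf4, and those that fell were Phgdh, Psph, Nupr1, Slc1a5, Mthfd1 and Gpt2. The median log2 change was 0.12 for the 38 genes and -0.042 for all genes, with 20 of the 38 above 0 and 18 below. In 15 of the 38 (39.5%) the values of the groups did not overlap, against 33.4% of all genes. Each change is Hypoxia minus Control in log2(signal + 16), its standard error (SE) comes from the limma fit, and folds are on the same scale. Means of signals are given ± SD with n = 4 per group, and because the arrays read whole muscle, fewer cells of a type and less RNA per cell cannot be told apart.

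**Figure D1:**
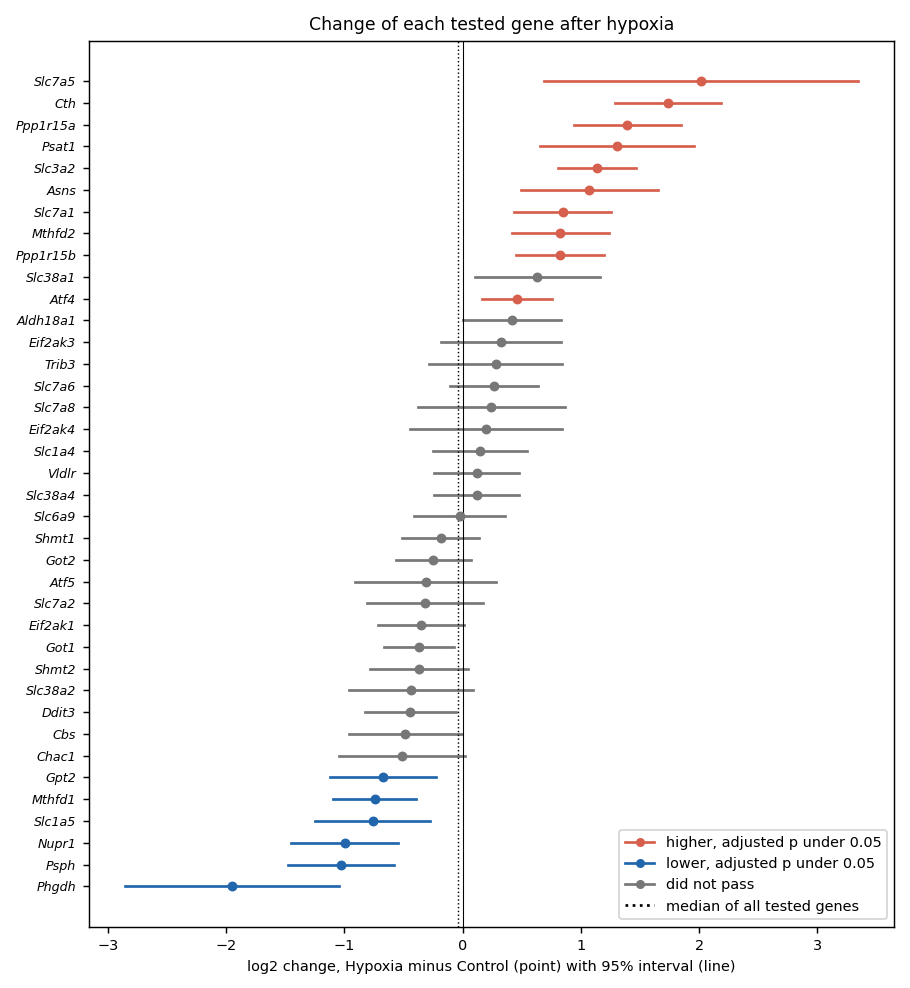
Log2 change of Hypoxia minus Control for each of the 38 tested genes (points), with 95% intervals from the limma fit (lines). The 10 genes in red and the 6 in blue passed an adjusted p of 0.05, and the dotted line is the median of all 13257 genes, -0.042.

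The groups also differed in measures of RNA quality and of tissue makeup, whose part in the results below was not tested. The ratio of 3′ to 5′ signal for the Gapdh control probe sets was 3.44 in Hypoxia 1 and between 0.776 and 0.874 in the 7 other arrays. For beta-actin it was 2.53 in Hypoxia 1, between 1.40 and 1.59 in the other Hypoxia arrays and between 1.09 and 1.25 in Control. All 8 skeletal muscle markers examined were past the filter, and 7 of them fell, with log2 changes from -0.73 to -0.44 and summed signals from 416465 to 488222 in Control and from 271010 to 365907 in Hypoxia. The summed signal of 6 neutrophil markers was between 479 and 1055 in Control and between 3225 and 6032 in Hypoxia, with S100a8, S100a9 and Ngp higher, Elane and Camp not passing and Mpo below the filter. All 6 fibroblast markers fell, with sums from 42668 to 48945 in Control and from 13457 to 17844 in Hypoxia, and 3 adipocyte markers fell while Lep was below the filter, with sums from 3058 to 19002 in Control and from 995 to 3752 in Hypoxia. Of 7 macrophage markers, with sums from 6514 to 8197 in Control and from 7289 to 11227 in Hypoxia, Cd68 rose and Adgre1 and Csf1r fell, and 1 of 7 endothelial markers, Kdr, fell. Of 3 Schwann cell markers Pmp22 fell, of 4 satellite cell markers Myod1 fell and Pax7 was below the filter, and of 3 erythroid markers Alas2 and Slc4a1 did not pass and Hba-a1 was below the filter. Without Hypoxia 1, 11 of the genes described here rose and 6 fell, among them all 16 that passed with 8 arrays.

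**Figure D2:**
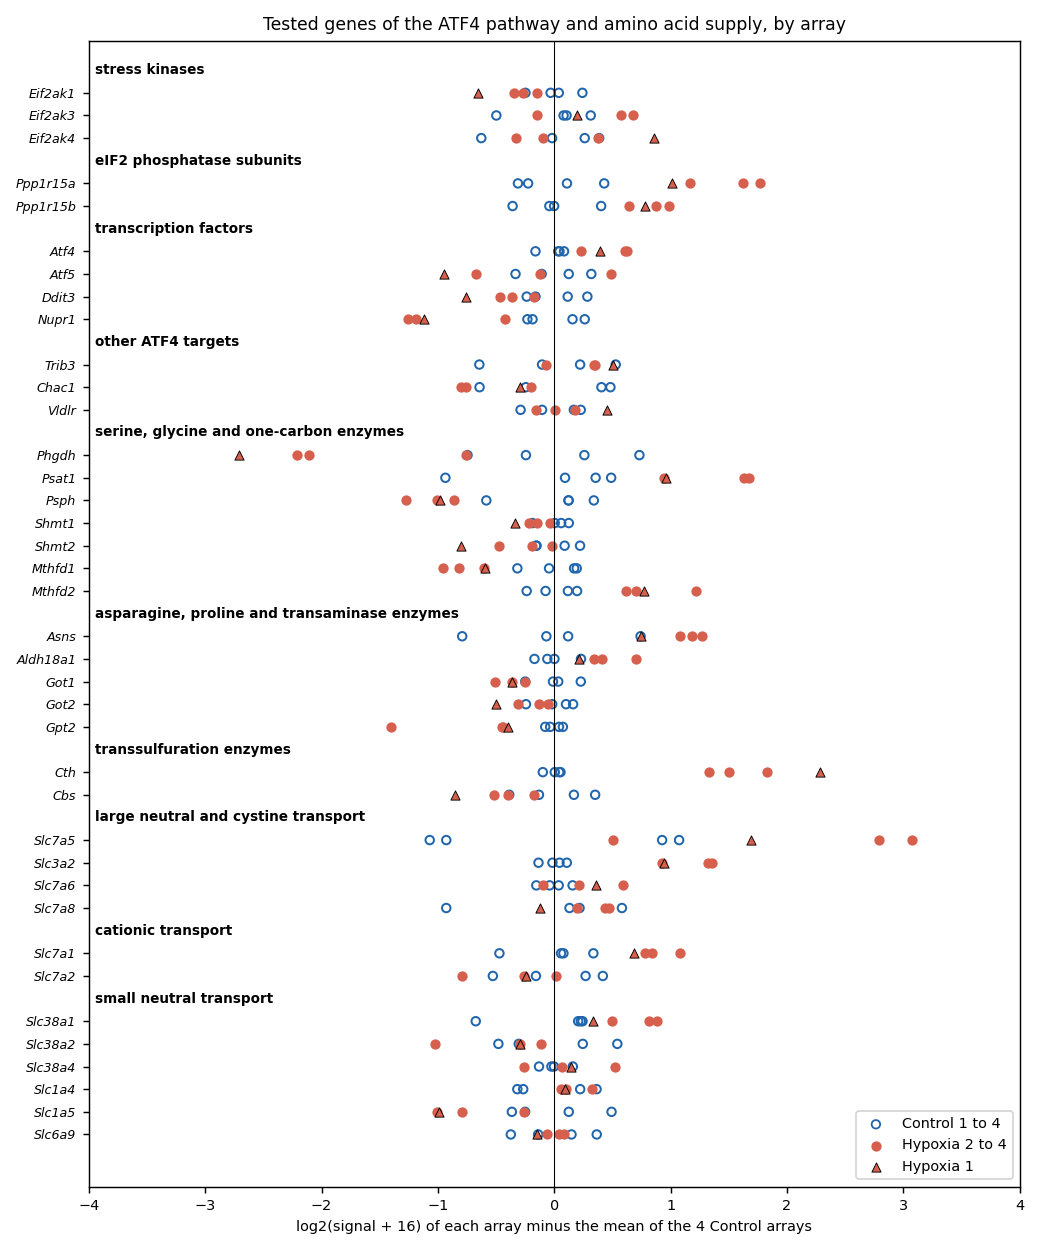
Log2(signal + 16) of each array minus the mean of the 4 Control arrays, for the 38 tested genes grouped by role. Open circles are Control arrays, filled circles Hypoxia 2 to 4 and triangles Hypoxia 1. The triangle lies among the other Hypoxia arrays for Slc3a2 and Ppp1r15b and above them for Cth. It lies below them for Ppp1r15a, Asns, Slc7a1 and Phgdh.

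Transcripts of the kinases that phosphorylate eIF2 did not pass the test, while both regulatory subunits of its phosphatase rose. Ppp1r15a encodes GADD34, the stress-induced subunit that brings protein phosphatase 1 to eIF2. Its signals were 1465, 1833, 1159 and 1090 in Control 1 to 4 and 2745, 4671, 4199.6 and 3071 in Hypoxia 1 to 4. Every Hypoxia array lay above every Control array, and Ppp1r15a rose 2.62-fold (log2 change 1.39 ± 0.21 SE, adjusted p = 0.000251). Ppp1r15b encodes CReP, the constitutive counterpart. It gave 1464, 1103, 1071 and 858 in Control and 1905, 1733, 2203 and 2042 in Hypoxia, again without overlap, and rose 1.77-fold (0.82 ± 0.17 SE, adjusted p = 0.00262). The difference between the rises of Ppp1r15a and Ppp1r15b, taken within each array, was 0.57 (exact two-sided permutation p = 0.0857, adjusted p = 0.129 over 9 pairs of genes).

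Eif2ak1, the heme-regulated kinase HRI, changed by -0.35 ± 0.17 (SE, adjusted p = 0.126), with signals of 655 to 925 in Control and 489.6 to 704 in Hypoxia. Its probe sets disagreed. The second brightest had 563 ± 58.4 in Control and 430 ± 174 in Hypoxia with overlap, a difference of -0.48. A dimmer one had 380.1 ± 43.9 in Control and 534 ± 85.4 in Hypoxia without overlap, a difference of 0.47. Eif2ak3, the endoplasmic reticulum kinase PERK, changed by 0.33 ± 0.23 (adjusted p = 0.318), with a 95% interval from -0.18 to 0.83. Eif2ak4, the amino acid sensing kinase GCN2, changed by 0.20 ± 0.30 (adjusted p = 0.652), and by -0.018 without Hypoxia 1 and -0.0089 without Control 4. The 95% intervals were -0.72 to 0.0093 for Eif2ak1 and -0.44 to 0.84 for Eif2ak4, and kinase activity was not measured. At an unadjusted p below 0.05 the limma count for these 3 was 0 as well. Eif2ak2, the double-stranded RNA kinase PKR, is outside the 40 genes and is named with its value already known. It changed by -0.66 ± 0.30 (SE, unadjusted p = 0.047, adjusted p = 0.112) and did not pass.

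Atf4 mRNA rose, by a small amount on its brightest probe set. Atf4 encodes the basic leucine zipper factor at the centre of the pathway. Its signals were 7997, 7936, 8216 and 6928 in Control and 10164, 11819.5, 9069 and 11962 in Hypoxia, so the groups did not overlap. The rise was 1.38-fold (0.46 ± 0.14 SE, adjusted p = 0.0195). A second, dimmer probe set had 4072 ± 999 in Control and 8249.5 ± 1307 in Hypoxia, a difference of 1.03, also without overlap. The call was lost without Control 4 (0.41, adjusted p = 0.0651), without Hypoxia 2 (0.41, adjusted p = 0.0634), without Hypoxia 4 (0.41, adjusted p = 0.0572) and with the replicate number as a block (adjusted p = 0.0563).

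Among the other transcription regulators, Nupr1 fell. Nupr1 encodes a small stress-induced chromatin protein. It had signals of 737, 939, 1011 and 714 in Control and 379.5, 360, 625 and 342 in Hypoxia. All Hypoxia values were lower, Hypoxia 3 least so, and the fall was 1.99-fold (log2 change -0.995 ± 0.21 SE, adjusted p = 0.00263). Its second probe set, 952 ± 283 in Control and 334 ± 129 in Hypoxia, differed by -1.49, also without overlap. Ddit3, which encodes the pro-apoptotic factor CHOP, had 939.5, 834, 649.7 and 686 in Control and 447, 593, 680 and 553 in Hypoxia. That difference of -0.44 ± 0.18 (SE) did not pass (adjusted p = 0.0773), except without Hypoxia 3 (-0.53, adjusted p = 0.0464). Atf5, a relative of ATF4, changed by -0.31 ± 0.27 (adjusted p = 0.419), with Hypoxia signals spread from 417 to 1159 around the Control range of 647 to 1026. The Atf4 change exceeded that of Atf5 by 0.78 within arrays, which did not pass either (exact permutation p = 0.143, adjusted p = 0.184).

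The 3 remaining stress targets did not pass on their brightest probe sets. Trib3, a pseudokinase that restrains ATF4, changed by 0.28 ± 0.26 (SE, adjusted p = 0.449), with 136 to 327 in Control and 209.7 to 322 in Hypoxia. Chac1, which breaks down glutathione, had 2058, 4271, 2717 and 4507 in Control and 2630.5, 1894, 1844 and 2798 in Hypoxia. Its change of -0.51 ± 0.25 (adjusted p = 0.129) passed without Control 1, the lowest Control array (-0.73, adjusted p = 0.028). By these probe sets limma gave 0 of the 3 genes at an unadjusted p below 0.05 as well.

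Vldlr, the receptor for very low density lipoprotein, gave opposite answers on different probe sets. The brightest had 17813 to 25494 in Control and 19523 to 29839.5 in Hypoxia, a change of 0.12 ± 0.17 (SE, adjusted p = 0.625). Another probe set read 4462, 4422, 5400 and 5139 in Control against 650.1, 536, 1266 and 805 in Hypoxia, a difference of -2.62. Another read 6197 ± 451 in Control and 1759 ± 262 in Hypoxia, a difference of -1.82, also without overlap. The 3 others showed the opposite, all Hypoxia values exceeding all Control values, with differences of 0.71, 0.80 and 0.89. For the first of these the signals were 6050.2 ± 608 in Control and 10002 ± 1769 in Hypoxia. Read by that probe set, as happens when sets that can bind related transcripts are left out, Vldlr rose (0.71, adjusted p = 0.00291). No direction is given for Vldlr here.

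**Figure D3:**
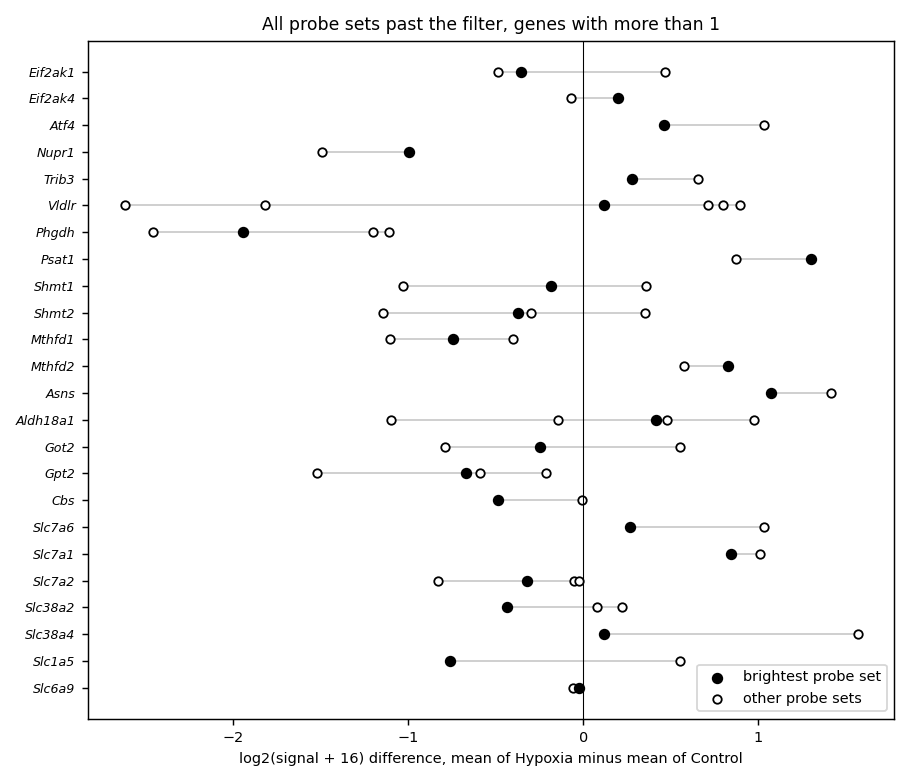
Difference of mean log2(signal + 16), Hypoxia minus Control, for every probe set past the filter of the 24 tested genes that have more than 1. Filled points are the brightest probe sets, used in the tests, and open points the others, which for Vldlr run from -2.62 to 0.89.

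The enzymes that make serine did not move together. In the 3 steps from the glycolytic intermediate 3-phosphoglycerate to serine, the transcripts of the first and last enzyme fell and that of the middle one rose. Phgdh, the dehydrogenase of the first step, had signals of 302, 435, 610.1 and 209 in Control and 41.6, 65.4, 71.6 and 207 in Hypoxia. The groups did not overlap, but Hypoxia 4 lay just under Control 4, and 3 Hypoxia values were below the filter signal of 90.2. Phgdh fell 3.86-fold (log2 change -1.95 ± 0.42 SE, adjusted p = 0.00304). The size depended on the probe set read. Without Control 1, Control 2, Control 3 or Hypoxia 4, another probe set became the brightest and was read instead. It differed by -1.20 with all 8 arrays. By that probe set the fall was 2.72-fold without Control 1 (-1.45, adjusted p = 0.00455) and 2.19-fold without Control 2 (-1.13, adjusted p = 0.0392). It was 1.95-fold without Control 3 (-0.97, adjusted p = 0.0459) and 2.60-fold without Hypoxia 4 (-1.38, adjusted p = 0.00943). Where the first probe set was still read, the change ran from -2.20 without Control 4 to -1.69 without Hypoxia 1. The 3 other probe sets of Phgdh, which like the first are of a type that can bind related transcripts, differed by -1.20, -2.46 and -1.11 with overlapping groups.

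Psat1, the aminotransferase of the second step, had 267, 323, 356 and 123 in Control and 500.1, 828, 807 and 495 in Hypoxia. All Hypoxia arrays were higher, Hypoxia 2 and 3 most, and Psat1 rose 2.47-fold (1.30 ± 0.30 SE, adjusted p = 0.00482). A second probe set differed by 0.87, with overlap. Psph, the phosphatase that releases serine, had 782, 911, 473 and 781 in Control and 356, 288, 349 and 388 in Hypoxia. Control 3 was nearest to the Hypoxia values, which lay close together, and Psph fell 2.04-fold (-1.03 ± 0.21 SE, adjusted p = 0.00194).

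**Figure D4:**
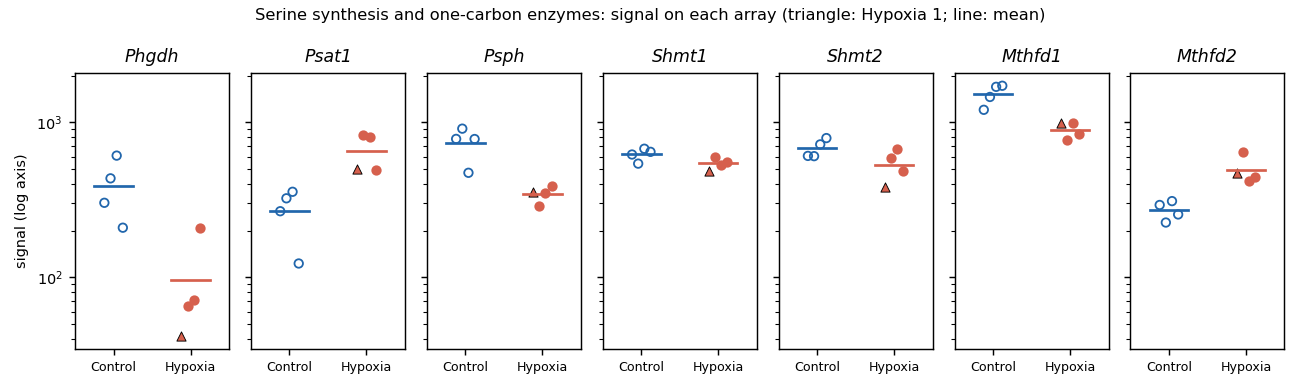
Signal on each array (log axis) for the enzymes of serine synthesis and the folate one-carbon cycle, with Control in blue, Hypoxia in red, Hypoxia 1 as a triangle and group means as lines. Psat1 and Mthfd2 sit higher in all 4 Hypoxia arrays, and Phgdh, Psph and Mthfd1 lower.

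The folate enzymes that carry one-carbon units from serine differed in direction too. Mthfd1, the trifunctional cytosolic enzyme, had 1206, 1459, 1697 and 1724 in Control and 992, 767, 985 and 847 in Hypoxia, without overlap. It fell 1.68-fold (-0.74 ± 0.16 SE, adjusted p = 0.00346), and its other probe sets differed by -1.10 and -0.40. Mthfd2, a mitochondrial counterpart and known ATF4 target, had 293, 226, 310.2 and 254 in Control and 471, 644, 419 and 446 in Hypoxia, all of them higher. It rose 1.77-fold (0.82 ± 0.19 SE, adjusted p = 0.00462), with a second probe set at 0.57. Within each array the log2 ratio of Mthfd1 to Mthfd2 was between 1.98 and 2.69 in Control and between 0.24 and 1.20 in Hypoxia. That shift of -1.57 within arrays had an exact permutation p of 0.0286, the smallest that 4 against 4 arrays allow, but an adjusted p of 0.129 over the 9 pairs.

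Shmt1 and Shmt2, the cytosolic and mitochondrial enzymes that convert serine to glycine, did not pass, at -0.19 ± 0.15 (SE, adjusted p = 0.379) and -0.37 ± 0.19 (adjusted p = 0.158). Both had probe sets in either direction. Those of Shmt1 ran from -1.03 to 0.36, and those of Shmt2 from -1.15 to 0.35. For Shmt2 the lowest of these, with 238 ± 50.7 in Control and 112 ± 68.1 in Hypoxia, had groups that did not overlap. Without the probe sets that can bind related transcripts, Shmt2 was read by it and passed (-1.15, adjusted p = 0.0359).

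Asparagine synthetase rose and an alanine aminotransferase fell. Asns, which makes asparagine and is a classical ATF4 target, had 385, 441, 687 and 227 in Control and 690, 871, 999.8 and 941 in Hypoxia. The groups met at Control 3 and Hypoxia 1 without overlapping, and Asns rose 2.10-fold (1.07 ± 0.27 SE, adjusted p = 0.00785). A second probe set separated the groups more widely, at 204 ± 48.2 in Control and 573 ± 132 in Hypoxia, a difference of 1.42. Its promoter window holds the core variant TGATGAAA shown above.

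Gpt2, the mitochondrial alanine aminotransferase, had 7520.5, 6928, 7134 and 7698 in Control and 5549.9, 5393, 5365 and 2751 in Hypoxia. It fell 1.59-fold (-0.67 ± 0.21 SE, adjusted p = 0.0231), with Hypoxia 4 far below the rest, and by 0.43 on the log2 scale without that array (adjusted p = 0.0284). The call was lost without Control 1 (-0.66, adjusted p = 0.0525), without Control 4 (-0.65, adjusted p = 0.0584), after median centring (-0.59, adjusted p = 0.068) and without the intensity trend (adjusted p = 0.051). It was also lost when probe sets that can bind related transcripts were left out, where the value was -0.21 (adjusted p = 0.622). A dimmer probe set, also not of that type, had 1798 ± 265 in Control and 687 ± 411 in Hypoxia without overlap, a difference of -1.52. The remaining probe set of Gpt2 differed by -0.59, with overlap. Got1 and Got2, the cytosolic and mitochondrial aspartate aminotransferases, changed by -0.37 ± 0.14 (SE, adjusted p = 0.0527) and -0.25 ± 0.15 (adjusted p = 0.216). A second probe set of Got2 had 4818 ± 509 in Control and 2931 ± 998 in Hypoxia without overlap, a difference of -0.79. A dim one differed by 0.55 in the other direction, with overlap. Got1 had 11799.5 to 16434 in Control and 9868 to 11802 in Hypoxia, so the groups overlapped narrowly, and it passed without Control 4 (-0.45, adjusted p = 0.0338) and under 4 other alternatives, with adjusted p from 0.0428 to 0.0467. Aldh18a1, which starts proline and ornithine synthesis from glutamate, changed by 0.42 ± 0.19 (adjusted p = 0.118), with probe sets from -1.10 to 0.98, and passed after quantile normalization (0.53, adjusted p = 0.0365).

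Of the 2 enzymes that turn homocysteine into cysteine, Cth rose and Cbs did not pass, and the difference between them was not tested. Cth, cystathionine gamma-lyase, makes cysteine in the last step. Its signals were 220.1, 198, 214 and 222 in Control and 1100.2, 559, 799 and 633 in Hypoxia. The Control arrays lay within a narrow band that all Hypoxia arrays exceeded. Cth rose 3.33-fold (1.73 ± 0.21 SE, adjusted p = 4.38e-05), the smallest p of the 38 genes, and by 1.55 without Hypoxia 1, its highest array. Cbs, cystathionine beta-synthase, changed by -0.49 ± 0.22 (SE, adjusted p = 0.113), with 256 to 437 in Control and 180.5 to 299 in Hypoxia. Its second probe set differed by -0.0093, with overlap.

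Both chains of the leucine transporter passed as higher, but the rise of Slc7a5 is uncertain. Slc7a5 encodes LAT1, which imports large neutral amino acids, and Slc3a2 encodes the heavy chain 4F2hc that brings LAT1 and several related transporters to the cell surface. Slc3a2 had 1226, 1338, 1279.8 and 1127 in Control and 2403, 2366, 3196 and 3121 in Hypoxia. No Hypoxia value was near the Control range, and Slc3a2 rose 2.20-fold (1.14 ± 0.15 SE, adjusted p = 9.82e-05). Slc7a5 was dim, with 154, 26.6, 138 and 22.6 in Control and 246, 668, 544 and 99.0 in Hypoxia, and Hypoxia 4 lay within the Control range. It rose 4.04-fold (2.01 ± 0.61 SE, adjusted p = 0.0223), a fold that depends on the constant added before the logarithm, since the Control mean of 85.5 is below the filter signal. The call was lost without Control 2 (1.70, adjusted p = 0.065), Control 4 (1.66, adjusted p = 0.0664), Hypoxia 2 (1.66, adjusted p = 0.0812) or Hypoxia 3 (1.76, adjusted p = 0.0643). Slc7a5 was past the filter only through its Hypoxia signals, and it was left out under a 60% filter.

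Other light chains that pair with 4F2hc did not pass. Slc7a6, which exchanges cationic for neutral amino acids, changed by 0.27 ± 0.17 (SE, adjusted p = 0.264), while its second probe set had 308 ± 71.7 in Control and 637 ± 52.5 in Hypoxia without overlap, a difference of 1.03. As the mean of both, Slc7a6 passed (0.65, adjusted p = 0.00622). Slc7a8, or LAT2, changed by 0.24 ± 0.29 (adjusted p = 0.56), and by -0.066 without Control 4, its lowest array. Within arrays Slc7a5 changed by 1.77 more than Slc7a8, which did not pass (exact permutation p = 0.0857, adjusted p = 0.129). Slc7a11, the cystine importer xCT, was below the filter and has no fold, with 69.9, 4.5, 82.6 and 19.1 in Control and 12.7, 44.3, 51.7 and 36.5 in Hypoxia.

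Of the transporters for arginine and lysine, Slc7a1 rose. Slc7a1 encodes CAT1, the widespread cationic transporter. It had 500.1, 416, 279 and 409.6 in Control and 641, 849.6, 684 and 718 in Hypoxia, all higher, and rose 1.80-fold (0.85 ± 0.19 SE, adjusted p = 0.00411). A second probe set differed by 1.01, also without overlap. Slc7a2, or CAT2, changed by -0.32 ± 0.23 (adjusted p = 0.306), with 3 other probe sets between -0.83 and -0.026. The Slc7a1 to Slc7a2 log2 ratio lay between -2.81 and -1.33 in Control and between -1.15 and -0.038 in Hypoxia, a shift of 1.17 (exact permutation p = 0.0286, adjusted p = 0.129).

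Transporters of small neutral amino acids mostly did not pass. Slc1a5, the glutamine carrier ASCT2, fell 1.69-fold (-0.76 ± 0.23 SE, adjusted p = 0.0194), with 692, 902, 1169 and 638 in Control and 409, 403, 689 and 471 in Hypoxia. Hypoxia 3 overlapped the Control range. The call was lost without Control 2 (-0.72, adjusted p = 0.0537), Control 3 (-0.60, adjusted p = 0.0627) or Hypoxia 2 (-0.68, adjusted p = 0.0594), and a dim second probe set differed by 0.55 in the other direction, so the fall is uncertain. The mean of both probe sets was -0.10 (adjusted p = 0.796). Slc1a4, or ASCT1, changed by 0.14 ± 0.18 (adjusted p = 0.598).

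Slc38a1 and Slc38a2 encode sodium-coupled carriers of the system A family, SNAT1 and SNAT2. Slc38a1 had 258, 260.4, 130.3 and 253 in Control and 279, 414, 314 and 394 in Hypoxia, without overlap, but its change of 0.63 ± 0.24 (SE) did not pass (adjusted p = 0.0642). It passed without Hypoxia 1 (0.73, adjusted p = 0.0462), after quantile normalization (0.76, adjusted p = 0.0258), after median centring (0.71, adjusted p = 0.0344) and with array weights (0.67, adjusted p = 0.0462). Slc38a2, a known target of ATF4, changed by -0.43 ± 0.24 (adjusted p = 0.193), with 7886 to 16030.5 in Control and 5395 to 10143 in Hypoxia. Its 2 other probe sets were at 0.22 and 0.081. Slc38a4, or SNAT4, changed by 0.12 ± 0.17 (adjusted p = 0.635). Its second probe set had 2608 ± 470.3 in Control and 8029 ± 2541 in Hypoxia without overlap, a difference of 1.57. The mean of both passed (0.84, adjusted p = 0.00271), so the change of Slc38a4 is uncertain. Slc6a9, the glycine transporter GlyT1, changed by -0.024 ± 0.18 (adjusted p = 0.938).

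Of the 24 tested genes with more than 1 probe set past the filter, 9 had one of the opposite sign, among which only Slc1a5 had passed the test. The 10 genes with other probe sets that passed thus had all of them in 1 direction, except Slc1a5. None of the 9 pairs of related genes compared within arrays passed after adjustment, where the smallest adjusted p was 0.129. The 4 pairs not given above were Shmt1 minus Shmt2 at 0.19 (adjusted p = 0.354), Got1 minus Got2 at -0.12 (adjusted p = 0.457), Slc38a1 minus Slc38a2 at 1.07 (adjusted p = 0.129) and Slc1a4 minus Slc1a5 at 0.90 (adjusted p = 0.129). All of these used the exact two-sided permutation test, in which a single pair cannot go below 0.0286. With that floor, a pair could pass after adjustment over the 9 pairs only if most of the pairs reached it together. Failure to pass therefore does not show that the genes of a pair changed alike.

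Further genes of the pathway were read from 7 lists, each beside the 14.8% higher and 18.8% lower of all genes. Among genes of eIF2, its exchange factor eIF2B and stress sensing, 5 of 14 rose and 2 fell (median 0.11). Eif2s2 and Eif2s3x, the beta and gamma subunits of eIF2, rose 1.66-fold and 2.01-fold, the first from 15312 ± 869.5 to 25516 ± 2492. A dimmer probe set of Eif2s2 differed by -0.40, with overlap, and its remaining probe sets by 0.33 to 0.99. Eif2b4 and Eif2b1, subunits of eIF2B, rose 1.98-fold and 1.66-fold. Dnajc3, which encodes the kinase inhibitor P58IPK, rose 3.03-fold on its brightest probe set, but 3 of 4 others differed by -0.68, -0.48 and -0.58, so its change is uncertain. Oma1, the mitochondrial protease that signals stress to HRI, fell 1.62-fold, and Nck1, an adaptor, fell 1.54-fold with a second probe set at 0.30.

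Cytosolic aminoacyl-tRNA synthetases, which charge tRNAs and include known ATF4 targets, rose in 7 of 19 cases and fell in none (median 0.31). In the other direction limma gave 0 by adjusted p and 1 by an unadjusted p below 0.05. Yars and Wars, named with their values already known, did not pass. Yars changed by -0.37 ± 0.16 (SE, adjusted p = 0.0948), without overlap. Wars changed by -0.34 ± 0.16 (adjusted p = 0.13), and its other probe sets differed by -0.69, -0.26 and -0.76, the first and last without overlap. Hars, the histidine enzyme, rose 2.97-fold from 1001 ± 115 to 2998 ± 238 (adjusted p = 4.43e-06), though a second probe set was at 0.20. Tars, Eprs and Mars1 rose 1.61-fold, 1.64-fold and 1.67-fold. Of 18 further genes known as ATF4 targets only 2 rose and none fell (median -0.064; 0 lower by adjusted p and 2 by unadjusted p with limma). These were Gadd45a, which also answers to p53 (12.2-fold), and Eif4ebp1, which restrains cap-dependent translation (6.64-fold). Ddit4 changed by 1.25 ± 0.49 (SE, adjusted p = 0.0697) and Jdp2 by -0.62 ± 0.23 (adjusted p = 0.0525), and neither passed. Without Control 4, 2 of these genes were lower, and without Control 2, 1 was.

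**Figure D5:**
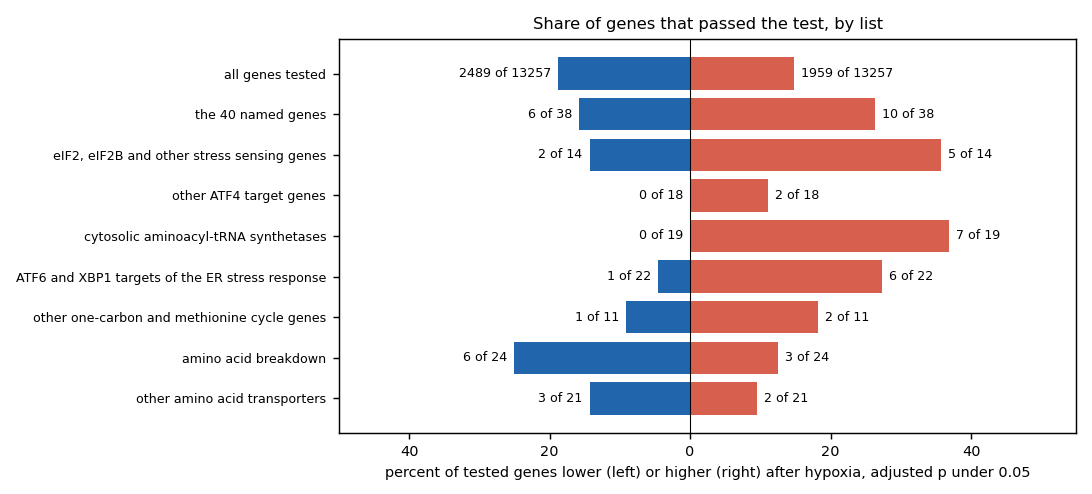
Percent of tested genes that were higher (right) or lower (left) after hypoxia at an adjusted p below 0.05, with counts, for all genes, the 40 genes and 7 further lists. The aminoacyl-tRNA synthetases have 7 of 19 higher and 0 lower, and amino acid breakdown has 3 of 24 higher and 6 lower. Glul, which makes glutamine, is among those 3.

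In the list of endoplasmic reticulum stress genes that answer to ATF6 and XBP1, 6 of 22 rose and 1 fell (median 0.36). Xbp1, the transcription factor itself, rose 1.89-fold from 4030 ± 666 to 7693 ± 1483, Dnajb9, a chaperone partner, rose 1.92-fold, and Selenos, of the degradation complex, rose 1.70-fold. Sec61b, a subunit of the translocon, fell 2.01-fold. For the main chaperone Hspa5, named with its value already known, the change was 0.48 ± 0.20 (SE, adjusted p = 0.0884), which did not pass. One-carbon and methionine cycle genes had 2 of 11 higher and 1 lower (median -0.026). Ahcy, which splits S-adenosylhomocysteine, rose 3.25-fold from 1694 ± 211 to 5555 ± 840, and Gnmt, glycine N-methyltransferase, rose 3.02-fold. Mthfd2l fell 1.55-fold, a call lost without Control 3, Control 4 or Hypoxia 2, each of which left 0 genes lower. Gcsh, of the glycine cleavage system, changed by -0.39 ± 0.16 (adjusted p = 0.0709).

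The list of amino acid breakdown, which also holds the glutamine-making enzyme Glul, had 3 of 24 genes higher and 6 lower (median 0.037). Pcca and Pccb, the subunits of propionyl-CoA carboxylase, fell 2.31-fold and 1.91-fold, and a dimmer probe set of Pcca was at 0.27. Aldh4a1, of proline breakdown, fell 2.23-fold. Glul, which makes glutamine, rose 2.48-fold from 7360.1 ± 3693 to 16981 ± 1187, with Oat (1.37-fold) and Hibadh (1.41-fold). Without Control 1, Control 4, Hypoxia 2 or Hypoxia 4, 1 gene of the list was higher. Among 21 other amino acid transporters 2 rose and 3 fell (median -0.23). Slc43a2, or LAT4, rose 2.02-fold, and Slc1a1, a glutamate carrier, rose 1.91-fold. Slc38a3, the glutamine carrier SNAT3, fell 2.23-fold, Slc6a8, which carries creatine, fell 1.36-fold, and Slc38a10, with probe sets of both signs, fell 1.40-fold. Without Control 4, 1 rose and 1 fell, and without Control 2 or Hypoxia 2, 1 fell.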

How the data were processed

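The deposited table gave 1 signal intensity per probe set for each of 8 Affymetrix arrays, made by the authors with MAS5, per the submitters' processing notes. MAS5 subtracts mismatch-probe background, summarises a probe set and scales each array by 1 factor. Its version is not given in the sources used here. Each of the arrays had a 2% trimmed mean of 500.0, so that scaling was kept. It assumes that total signal is alike in all arrays. The number of arrays limits the precision.

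The table holds 45101 probe sets. After 64 control sets were removed, the dimmest 40% by mean log2 value were dropped (cutoff near a signal of 90.2). Probe sets were named from a platform annotation, with symbols updated by gene ID to GRCm38.p6 for 99.4% of those with 1 symbol. A gene was read by its brightest probe set with 1 symbol. Signals were taken as log2(signal + 16), which understates changes of dim genes. The groups were compared with limma 3.58.1 in R 4.3.3 (lmFit, eBayes with an intensity trend, two-sided) and Benjamini-Hochberg adjustment over 13257 genes. On simulated data of that size, 50% of genes changed by 1 on the log2 scale and 8% of those changed by 0.5 were recovered. Only 50 genes were changed at each size there, while 33.6% of all genes passed in the data. The adjustment depends on how many genes change, so these shares cannot be carried over to the data.

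Samples were grouped by title. Same-numbered arrays did not deviate together (correlations from -0.075 to 0.0024), so no block entered the main fit. The 40 genes and the lists were chosen with earlier results of these data known. All 40 are named, and from each further list the 4 genes with the smallest p and all that passed in a direction with 5 or fewer. The alternatives concerned scaling, pseudocount, filter, probe set choice, variance model, array weights, the block and each array left out.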

Additional observations from a re-analysis of the deposited data

Results flagged for a closer look

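In 3 of the 76 groups of 4 arrays examined, 1 array lay far from the other 3 for its group's range, and chance alone would give about 3.8. The Hypoxia 3 signal of Nupr1 was 624.6, and its group otherwise ran from 342.5 to 379.5. Gpt2 had 2751.1 in Hypoxia 4, against 5365.3 to 5549.9. Slc38a1 had 130.3 in Control 3, against 253.3 to 260.4.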

How the results depend on the processing

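The counts of the 40 genes kept within 1.5 times their value under all 20 alternatives run, from 8 to 12 higher and from 5 to 7 lower. Of 757 single-gene values, 710 kept their direction and side of the threshold. Ppp1r15a, Ppp1r15b, Nupr1, Psat1, Psph, Mthfd1, Mthfd2, Asns, Cth, Slc3a2 and Slc7a1 passed under all 20. Phgdh passed in the 18 in which it could be tested, but its fall of 3.86-fold was 2.19-fold without Control 2 and 1.95-fold without Control 3. Another probe set was read there, which differed by -1.20 with all 8 arrays. With the replicate number as a block Atf4 was lost (adjusted p = 0.0563), so that 9 of the genes rose and 6 fell, and 1782 genes of all rose and 2300 fell. Changes that did not pass turned sign for Slc6a9 (0.10 after quantile normalization, 0.059 after median centring, 0.012 with array weights), Slc38a4 (-0.019 after quantile normalization), Vldlr (-0.32 as the mean of probe sets), and Shmt1 (0.36) and Aldh18a1 (-0.14) without probe sets that can bind related transcripts. With 1 array left out, the values crossed 0 for Eif2ak4 (-0.018 to 0.38), Slc7a8 (-0.066 to 0.44), Slc38a4 (-0.018 to 0.24) and Slc6a9 (-0.15 to 0.098).

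Small counts of the further lists moved more. With the mean of probe sets, 1 gene was lower in the stress sensing list, 1 among ATF4 targets, 1 among synthetases, 0 in the one-carbon list and 5 among transporters, of which 1 was higher. ATF4 targets had 1 lower with a pseudocount of 64 and with a 60% filter. The one-carbon list had 0 lower after median centring and without a filter, and 2 with array weights. Breakdown had 1 higher without the intensity trend, and transporters 1 lower after median centring. With 1 array left out, the counts ran from 0 to 2 lower for ATF4 targets, 0 to 1 lower for one-carbon genes, 1 to 4 higher for breakdown, and 1 to 2 higher and 1 to 4 lower for transporters. The cause was not tested. Dim probe sets such as those of Slc7a5 and Phgdh limit what can be measured.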
